A study of Mus musculus with 12 samples.

Results

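The 35 genes described here encode the sensors of the unfolded protein response (UPR), the chaperones and disulfide isomerases of the endoplasmic reticulum (ER), and the machinery of ER-associated degradation (ERAD). They were listed by gene symbol from known function, with earlier results of these data known, and all 35 were found among the 24421 genes listed for each library. By role they comprise 5 sensors and regulators, 9 chaperones, co-chaperones and secreted UPR factors, 4 lectin chaperones and glycan quality control enzymes, 4 disulfide isomerases, 3 proteins of entry and export, and 10 components of ER degradation. RNA sequencing was performed on liver and lung tissue of newborn *Man1a2*+/+ (WT) and *Man1a2*-/- (null) mice on the day of birth, giving 12 libraries, 3 for each genotype in each tissue. The product of *Man1a2* is a mannosidase of the Golgi that acts on N-linked glycans after glycoproteins leave the ER. The null line (tm1.1Ahe) carries a germline deletion of exon 2 in every cell, and null pups die of respiratory failure after birth. The comparison of null with WT asked which genes moved with loss of the enzyme, and the comparison of liver with lung gives the setting in which they did.

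Secretory and membrane proteins fold in the ER, where chaperones such as BiP (*Hspa5*) hold unfolded chains and the lectins calnexin and calreticulin hold chains that carry monoglucosylated N-glycans. When unfolded chains accumulate, the sensors ATF6, IRE1 (*Ern1*) and PERK (*Eif2ak3*) are activated. They raise transcription of chaperones and ERAD components through cleaved ATF6 and spliced XBP1, and they lower translation through phosphorylation of eIF2alpha, which favours translation of ATF4. Liver is a tissue of heavy secretion, since hepatocytes make most plasma proteins. Chains that fail to fold are recognised by lectins such as OS9, moved out through the SEL1L-HRD1 (*Syvn1*) complex with the derlins and HERP (*Herpud1*), marked by ubiquitin-conjugating enzymes such as UBE2J1, and extracted by VCP for destruction by the proteasome.

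Promoter windows covering 250 bases before to 50 bases after the start of each gene were available from RefSeq (GRCm38.p6) for 29 of the 35 genes. *Atf6*, *Hyou1*, *Manf*, *Lman1*, *Derl1* and *Erlec1* had no window. Both strands were searched for 4 motifs. The ER stress response element (ERSE, the letters CCAAT, then 9 bases of any kind, then CCACG) occurred in 9 of the 29 genes (31.0%) and in 37 of 27025 genes overall (0.137%). Those 9 genes were *Hspa5*, *Hsp90b1*, *Dnajc3*, *Creld2*, *Calr*, *Canx*, *Pdia6*, *Syvn1* and *Derl3*. ERSE-II (ATTGG, then any 1 base, then CCACG) occurred in *Dnajb11* and *Herpud1* and in 12 genes overall (0.0444%). The UPR element (UPRE, TGACGTGG) occurred in *Ube2j1* and *Vcp* and in 193 genes overall (0.714%), and the C/EBP-ATF response element (CARE, TGATGCAA) occurred in *Herpud1* alone among the 29 and in 279 genes overall (1.03%). These motifs do not overlap one another in the windows printed. Windows of *Hspa5*, *Hsp90b1*, *Calr*, *Pdia6*, *Herpud1* and *Ube2j1* are shown on the strand of the gene, with the motif in capitals. Those of the other genes with a motif are not printed. A motif read from the opposite strand appears as its reverse complement.
*Hspa5*, ERSE, chr2:34772020-34772049, plus strand: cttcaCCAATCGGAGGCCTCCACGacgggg
*Hsp90b1*, ERSE, chr10:86705632-86705661, minus strand: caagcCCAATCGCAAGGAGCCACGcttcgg
*Hsp90b1*, second ERSE, reverse complement, chr10:86705527-86705556, minus strand: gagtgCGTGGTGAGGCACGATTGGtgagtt
*Calr*, ERSE, reverse complement, chr8:84847069-84847098, minus strand: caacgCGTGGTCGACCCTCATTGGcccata
*Pdia6*, ERSE, chr12:17266486-17266515, plus strand: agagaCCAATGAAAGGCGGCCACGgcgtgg
*Herpud1*, ERSE-II, chr8:94386368-94386397, plus strand: cgggcgctgATTGGGCCACGttggacactg
*Herpud1*, CARE, reverse complement, chr8:94386306-94386335, plus strand: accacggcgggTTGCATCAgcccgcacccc
*Ube2j1*, UPRE, reverse complement, chr4:33031301-33031330, plus strand: cgaagcgcccgCCACGTCAggccgacttca

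*Herpud1* was the only gene of the 29 with 2 kinds of motif. Its CARE lay from -112 to -105 and its ERSE-II from -52 to -42 relative to the start, and in *Hspa5* the ERSE lay from -65 to -47. A match is a description of the letters in a window and says nothing of binding.

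Total counts per library ranged from 32250518 to 35293748 in WT liver, from 35354607 to 37603073 in null liver, from 27415676 to 41339184 in WT lung and from 26759463 to 42914295 in null lung. The labelled tissues were checked by summed markers. Hepatocyte markers summed to between 120456 and 187584 CPM (counts scaled to the size of the library) in the livers and to between 24.0 and 388 CPM in the lungs. Lung epithelial markers summed to between 19676 and 26537 CPM in 5 lungs and to 294 CPM in null lung 1, where *Sftpc*, which encodes surfactant protein C, stood at 26.6 CPM against 17387 and 11908 CPM in null lungs 2 and 3. Muscle markers summed to 13861 CPM in null lung 1 against 172 to 408 CPM in the other lungs, and to 6095 CPM in null liver 1 against 5.21 to 7.02 CPM in the other livers. Null lung 1 therefore went against its label as lung, and results for null against WT lung are given with and without it. Counts of calls in null against WT liver are also given without null liver 1. *Man1a2* stood at 87.0, 54.2 and 68.6 CPM in WT liver and 53.7, 48.2 and 50.2 CPM in null liver, and at 105, 75.6 and 107 CPM in WT lung and 42.7, 49.8 and 50.2 CPM in null lung. Every null library was below every WT library of its tissue. Counts of the whole gene include exons outside the deletion.

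In WT pups, levels of the ER folding machinery after scaling were higher in liver than in lung, whereas those of its 3 sensors were not. Scaling sets the typical gene near equal between tissues, so these differences are relative to it. Of the chaperones 7 of 9 were higher in liver, as were all 4 disulfide isomerases and all 3 genes of entry and export, led by *Sdf2l1* (4.27-fold), *Calr* (3.66-fold), *Lman1* (3.05-fold) and *Hspa5* (2.89-fold). *Ern1* and *Xbp1* were lower in liver. Of the 35 genes, 25 were differentially expressed between WT liver and WT lung, 23 higher and 2 lower in liver. Over all 15635 genes tested 77.0% were called, 37.2% higher and 39.8% lower in liver. A gene was called when the adjusted p of edgeR's quasi-likelihood test was under 0.05 and the change at least 1.2-fold. The median log2 fold change was 0.63 over the 35 genes and -0.04 over all genes tested. The libraries of the tissues did not overlap for 29 of the 35, 25 higher and 4 lower in liver, beside 81.3% of all genes tested, 38.8% higher and 42.5% lower. Pairing the libraries of liver and lung by number gave 24 genes, beside 77.7% of all genes. In whole tissue, fewer cells of a type and less RNA per cell cannot be told apart.

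**Figure D1:**
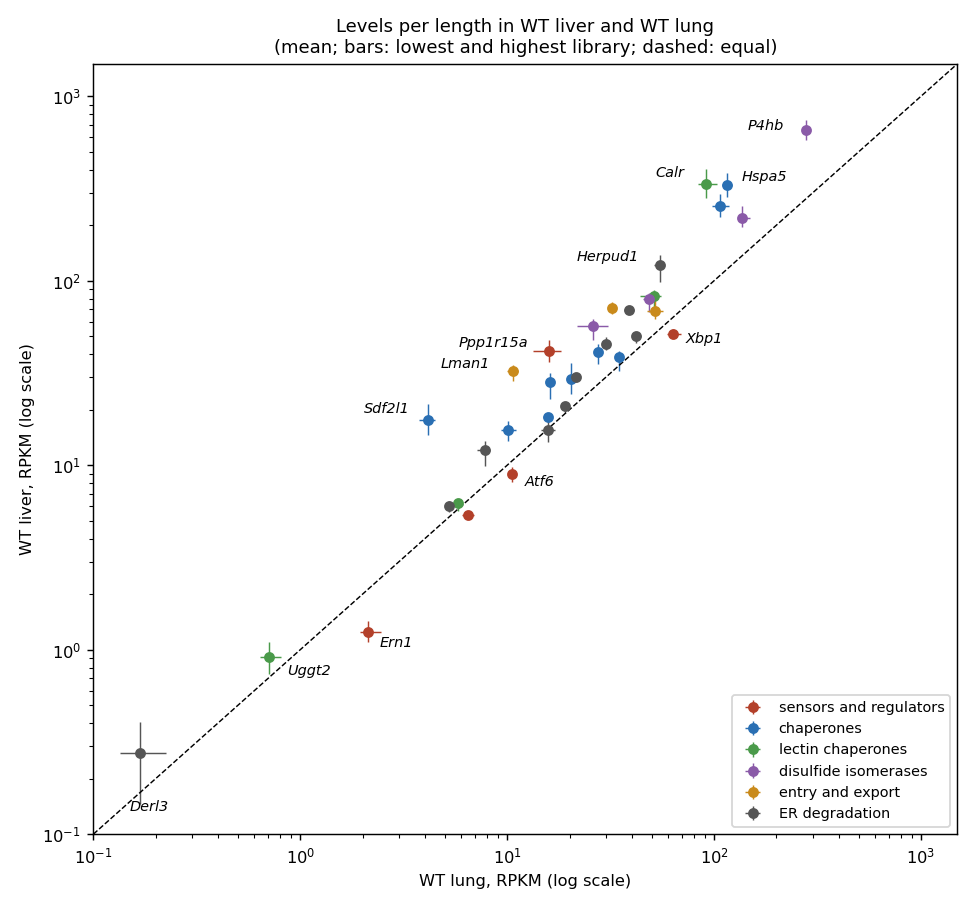
Level of each of the 35 genes per length (RPKM, mean of 3 libraries, bars to the lowest and highest library) in WT lung on the x axis and WT liver on the y axis, both on log scales, coloured by role. Most genes lie above the dashed line of equal level, *Atf6*, *Eif2ak3*, *Ern1* and *Xbp1* lie below it, and *P4hb* is highest in both tissues.

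Levels between genes were compared as CPM divided by exon length in kilobases (RPKM). *P4hb*, the beta subunit of prolyl 4-hydroxylase that also acts as protein disulfide isomerase, was highest of the 35 in all 4 groups, at 654 RPKM in WT liver and 277 RPKM in WT lung. In WT liver it was followed by *Calr* at 333, *Hspa5* at 330, *Hsp90b1* at 254 and *Pdia3* at 219 RPKM. *Calr* and *Hspa5* did not differ beyond the spread between libraries. The 3 sensors lay far lower, with *Atf6* at 9.01, *Eif2ak3* at 5.37 and *Ern1* at 1.24 RPKM in WT liver, and only *Uggt2* and *Derl3* were below *Ern1*. The median of the 35 was 38.4 RPKM in WT liver and 21.4 RPKM in WT lung. As a share of all counts before scaling, the 35 genes took 0.725% to 0.817% of each WT liver and 0.652% to 0.734% of each WT lung. These ranges overlapped. By role, the share was higher in every WT liver for chaperones, for lectin chaperones and for entry and export. It overlapped for disulfide isomerases, and was lower in every WT liver for sensors and regulators and for ER degradation.

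Among sensors and regulators, 3 of 5 differed between the WT tissues, 1 higher and 2 lower in liver. *Ppp1r15a* encodes GADD34, which returns phosphorylated eIF2alpha to its resting state. It stood at 139.5, 121 and 106 CPM in WT liver and 38.9, 47.9 and 53.7 CPM in WT lung, a log2 difference of 1.40 (SE 0.14, adjusted p = 1.44e-05). *Ern1* stood at 11.7, 8.999 and 9.75 CPM in liver and 20.1, 15.9 and 16.3 CPM in lung, a log2 difference of -0.77 (SE 0.15, adjusted p = 0.00105). Both genes were separated without overlap, in opposite directions. *Xbp1*, the transcription factor that IRE1 activates by splicing, stood at 159, 164 and 179 CPM in liver and 224, 196 and 193 CPM in lung. Its log2 difference was -0.28 (SE 0.11, adjusted p = 0.0394), and the call was lost when liver and lung libraries of the same number were paired (adjusted p = 0.0599). *Atf6* at -0.21 and *Eif2ak3* at -0.26 were lower in every liver library than in every lung library but were not called. Gene counts do not separate spliced from unspliced *Xbp1*.

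All 9 chaperones and co-chaperones had a positive log2 difference between WT liver and WT lung, and 7 were called. *Sdf2l1*, a component of an ER chaperone complex, stood at 16.1, 18.7 and 23.7 CPM in liver and 4.72, 4.95 and 4.17 CPM in lung, a log2 difference of 2.10 (SE 0.17, adjusted p = 2.68e-06). *Hspa5* stood at 1198, 1615 and 1378 CPM in liver and 459.9, 513 and 487 CPM in lung, a log2 difference of 1.53 (SE 0.17, adjusted p = 2.91e-05). The lowest liver library was far above the highest lung library for both. *Hsp90b1*, which encodes GRP94, differed by 1.26, the nucleotide exchange factor *Hyou1* by 0.63, the co-chaperone *Dnajb11* by 0.60, and the secreted factors *Manf* and *Creld2* by 0.54 and 0.84. *Dnajb9* and *Dnajc3*, at 0.23 and 0.16, were not called.

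Of the lectin chaperones and glycan enzymes, calreticulin and calnexin were higher in liver and the glucosyltransferases that tag unfolded glycoproteins were not called. *Calr* stood at 808, 1158 and 908 CPM in WT liver and 242, 299 and 251 CPM in WT lung, a log2 difference of 1.87 (SE 0.18, adjusted p = 9.51e-06). *Canx* stood at 339, 417 and 400.1 CPM in liver and 206, 258 and 259 CPM in lung, a log2 difference of 0.69 (SE 0.14, adjusted p = 0.00138). Neither the soluble nor the membrane-bound lectin overlapped between tissues. *Uggt1* differed by 0.12 and *Uggt2* by 0.38. With liver and lung libraries paired by number, *Uggt2* was called (0.37, adjusted p = 0.0269).

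All 4 disulfide isomerases and all 3 genes of entry and export were higher in WT liver. *P4hb* stood at 1650.2, 2132 and 1834 CPM in liver and 791, 832 and 759 CPM in lung, a log2 difference of 1.25 (SE 0.18, adjusted p = 0.000147). *Pdia4* stood at 115, 149 and 142 CPM in liver and 51.9, 73.7 and 61.0 CPM in lung, a log2 difference of 1.14 (SE 0.15, adjusted p = 7.06e-05). The groups did not overlap for either gene, and *Pdia3* and *Pdia6* differed by 0.70 and 0.73. *Lman1* and *Mcfd2* encode the cargo receptor that carries coagulation factors V and VIII out of the ER. *Lman1* stood at 253, 295 and 306 CPM in liver and 88.2, 99.1 and 95.0 CPM in lung, a log2 difference of 1.61 (SE 0.11, adjusted p = 1.07e-06). *Mcfd2* stood at 186, 217 and 199.9 CPM in liver and 90.2, 91.3 and 89.8 CPM in lung, a log2 difference of 1.16 (SE 0.09, adjusted p = 2.77e-06). Both subunits were separated between tissues without overlap, and *Sec61b*, a subunit of the translocation channel, differed by 0.42.

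ER degradation was less uniform, with 6 of 10 genes higher in WT liver and none lower. *Herpud1* stood at 321, 229.8 and 301 CPM in liver and 129, 134 and 119.9 CPM in lung, a log2 difference of 1.17 (SE 0.14, adjusted p = 5.3e-05). *Os9*, a lectin that reads trimmed glycans on misfolded chains, stood at 179, 192 and 179 CPM in liver and 102, 108 and 96.4 CPM in lung, a log2 difference of 0.86 (SE 0.09, adjusted p = 2.02e-05). No library of one tissue reached the level of the other for these genes. *Derl1* (0.62), *Syvn1* (0.64), *Sel1l* (0.50) and *Vcp* (0.27) were also called. *Vcp* lost its call when libraries were paired by number (adjusted p = 0.0518). *Derl2* (0.21), *Ube2j1* (0.15), *Erlec1* (-0.00) and *Derl3* (0.77, SE 0.42) were not called, and *Derl3* rested on 7 to 23 counts per library.

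The liver-lung difference was also examined in null pups. Of the 35 genes, 18 were called and all 18 were higher in liver, where 45.8% of 15508 genes were called, 21.6% higher and 24.2% lower. Without null lung 1, 20 genes were called and all were higher in liver, beside 60.7% of all genes called, 29.6% higher and 31.2% lower. *Atf6*, not called between WT tissues, was higher in null liver than in null lung (0.68, SE 0.22, adjusted p = 0.0497, and 0.51, adjusted p = 0.0305, without null lung 1). *Ern1* and *Xbp1*, lower in WT liver, had log2 differences of 0.29 (SE 0.49) and 0.36 (SE 0.25) between the null tissues that were not called. Without null lung 1 these were -0.040 (SE 0.39) and 0.23 (SE 0.24), so the direction of *Ern1* turned with that library.

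In null liver the sensors *Atf6* and *Eif2ak3* rose, *Ern1* rose less firmly, and most of the folding machinery did not pass the test. *Herpud1* rose 2.49-fold, *Atf6* 2.14-fold, *Eif2ak3* 1.99-fold, *Ppp1r15a* 1.87-fold and *Ern1* 1.74-fold. *Ern1* was called in only 1 of the 6 fits without 1 library, and *Atf6* and *Eif2ak3* in all 6. *Dnajb9*, *Ube2j1* and *Pdia6* rose between 1.38-fold and 1.5-fold, and *Sel1l* fell 1.40-fold. *Pdia6* was called in 0 and *Sel1l* in 1 of the same 6 fits. Of the 35 genes, 9 were called, 8 higher and 1 lower. Over the 14343 genes tested 26.9% were called, 13.5% higher and 13.4% lower, so the total share was near that of all genes. The median log2 fold change of the 35 was 0.22 against 0.02 over all genes, and 29 of 35 were positive. By role, 4 of 5 sensors and regulators, 1 of 9 chaperones, 0 of 4 lectin chaperones, 1 of 4 disulfide isomerases, 0 of 3 entry and export genes and 3 of 10 ER degradation genes were called. At an unadjusted p under 0.05 there were 12. The groups did not overlap for 15 genes, 13 higher and 2 lower, beside 46.6% of all genes tested, 23.1% higher and 23.5% lower.

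**Figure D2:**
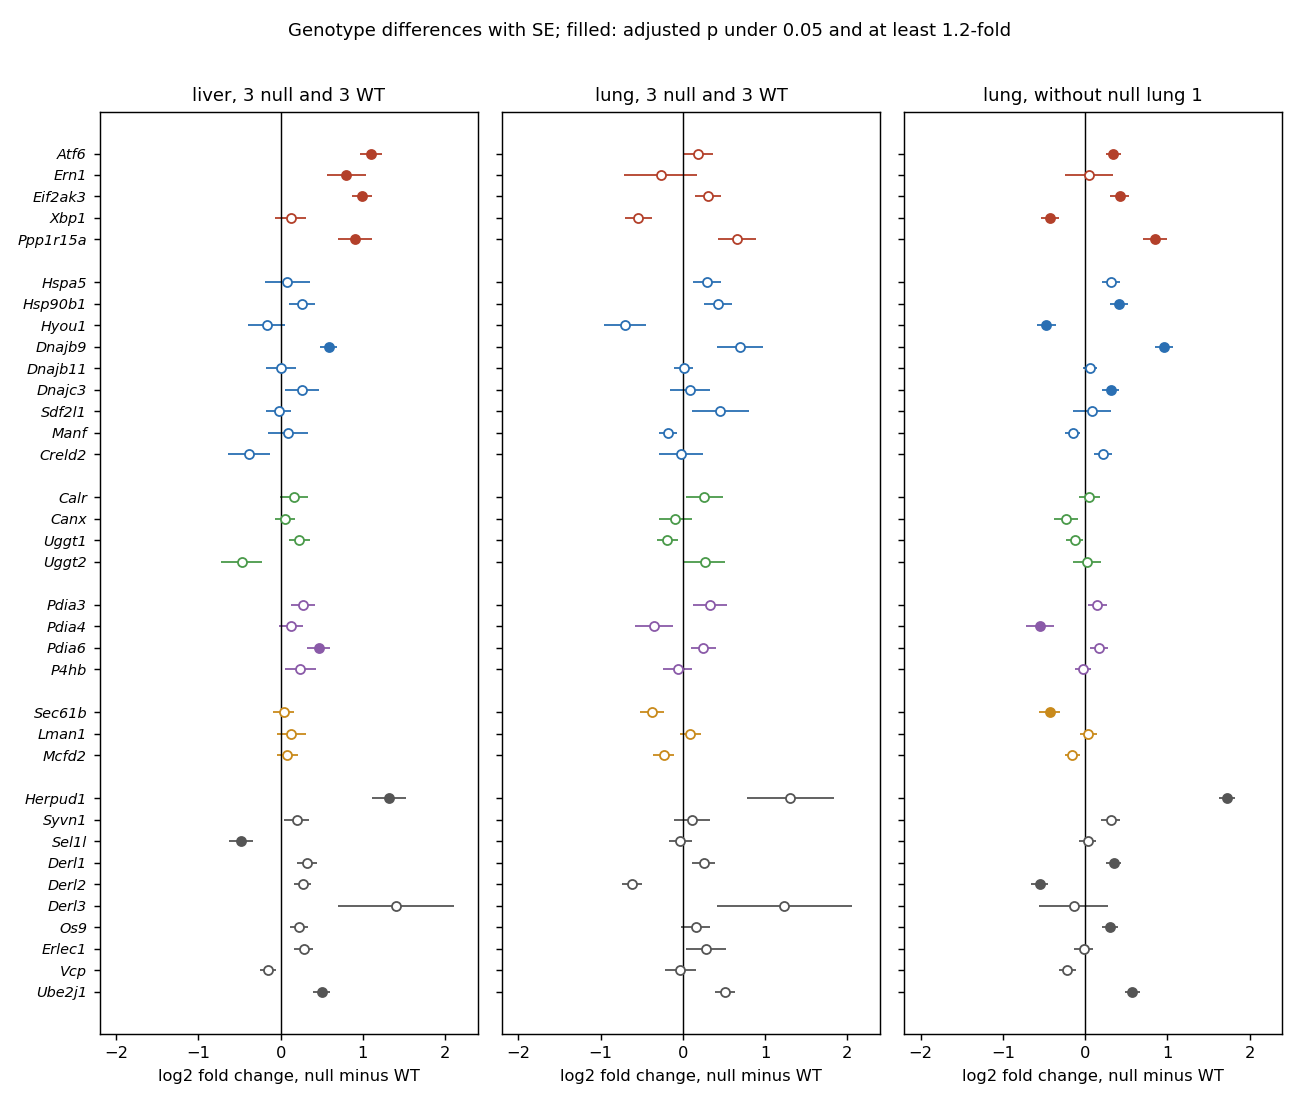
Log2 fold change of null against WT (x axis, points with SE) for each of the 35 genes (y axis), grouped and coloured by role, in liver, in lung with all libraries and in lung without null lung 1. Filled points are called genes, 9 in liver, 0 in lung and 15 in lung without null lung 1.

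The 3 sensors were described in every library. *Atf6* stood at 90.4, 74.8 and 84.3 CPM in WT liver and 191, 155 and 191 CPM in null liver (log2 fold change 1.10, SE 0.13, adjusted p = 0.0031). *Eif2ak3* stood at 34.0, 31.9 and 31.2 CPM in WT liver and 68.9, 54.9 and 69.7 CPM in null liver (log2 fold change 0.99, SE 0.12, adjusted p = 0.00292). Both were separated by a wide gap, and both were called in each of the 6 fits that left out 1 library. *Ern1* stood at 11.7, 8.999 and 9.75 CPM in WT liver and 17.6, 12.4 and 23.0 CPM in null liver (log2 fold change 0.80, SE 0.24, adjusted p = 0.0439). Its groups lay close, between 11.7 and 12.4 CPM, and it was called in 1 of the 6 fits without 1 library. Exons of *Eif2ak3* overlap those of another gene on the opposite strand, and whether counting used strand is not given in the sources used here.

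*Ppp1r15a* stood at 139.5, 121 and 106 CPM in WT liver and 232, 287 and 167 CPM in null liver (log2 fold change 0.90, SE 0.21, adjusted p = 0.0184). The groups did not overlap, and the call was lost without WT liver 2 (adjusted p = 0.0671) or without WT liver 3 (adjusted p = 0.0793). *Xbp1* stood at 159, 164 and 179 CPM in WT liver and 152, 157 and 236 CPM in null liver (log2 fold change 0.12, SE 0.19, adjusted p = 0.66). Null liver 3 was above every WT library while null livers 1 and 2 were below. Summed over the 5 sensors and regulators, levels were 401 to 434 CPM in WT liver and 661 to 687 CPM in null liver.

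*Dnajb9* encodes ERdj4, a co-chaperone that hands misfolded chains to ERAD. It was the only chaperone called and stood at 44.2, 46.1 and 49.1 CPM in WT liver and 64.7, 66.6 and 77.8 CPM in null liver (log2 fold change 0.58, SE 0.11, adjusted p = 0.00902). It was called in all 6 fits without 1 library but not in 1 fit of all 12 libraries. *Hspa5*, the most abundant of the 9 chaperone genes per length, stood at 1198, 1615 and 1378 CPM in WT liver and 1054, 1206 and 2167 CPM in null liver (log2 fold change 0.08, SE 0.27, adjusted p = 0.843). Null liver 3 was the highest of the 6 and null liver 1 the lowest. The other 7 chaperones had log2 fold changes from -0.39 for *Creld2* to 0.26 for *Dnajc3* and *Hsp90b1*. Lectin chaperones and glycan enzymes lay at 0.16 for *Calr*, 0.05 for *Canx*, 0.23 for *Uggt1* and -0.48 for *Uggt2*, and none was called.

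*Pdia6*, a disulfide isomerase that also acts on IRE1 and PERK, stood at 252, 321 and 319 CPM in WT liver and 406, 369.8 and 453 CPM in null liver (log2 fold change 0.46, SE 0.14, adjusted p = 0.0439). The groups did not overlap, but the call was lost in each of the 6 fits without 1 library. *P4hb* stood at 1650.2, 2132 and 1834 CPM in WT liver and 1839, 1953 and 2816 CPM in null liver (log2 fold change 0.24, SE 0.19, adjusted p = 0.379). *Pdia3* lay at 0.27 and *Pdia4* at 0.13. Entry and export genes lay at 0.03 for *Sec61b*, 0.13 for *Lman1* and 0.08 for *Mcfd2*, with no call.

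In ER degradation, a scaffold rose and a core subunit of the same complex fell. *Herpud1* stood at 321, 229.8 and 301 CPM in WT liver and 549, 764 and 817 CPM in null liver (log2 fold change 1.32, SE 0.20, adjusted p = 0.00547). *Ube2j1* stood at 77.6, 67.3 and 76.1 CPM in WT liver and 106, 110.0 and 96.98 CPM in null liver (log2 fold change 0.50, SE 0.11, adjusted p = 0.0149). Neither gene overlapped between genotypes. *Herpud1* was called in all 6 fits without 1 library and *Ube2j1* in 5, all but that without WT liver 3. In 1 fit of all 12 libraries, *Herpud1* lost its call and *Ube2j1* kept it. *Sel1l* stood at 258, 241 and 269.6 CPM in WT liver and 161, 174 and 216 CPM in null liver (log2 fold change -0.48, SE 0.14, adjusted p = 0.0437), and was called in 1 of the 6. *Derl1* (0.32), *Derl2* (0.27), *Os9* (0.22) and *Erlec1* (0.28) were higher and *Vcp* (-0.16) lower in every null liver than in every WT liver without being called. *Syvn1* lay at 0.20 and *Derl3* at 1.40 (SE 0.70), the latter on 18 to 74 counts per null library.

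Without null liver 1, in which muscle genes were high, 6 of the 35 genes were called, namely *Atf6*, *Eif2ak3*, *Ppp1r15a*, *Dnajb9*, *Herpud1* and *Ube2j1*, all higher. Over all genes 23.8% were then called, 11.9% higher and 11.9% lower. Leaving out WT liver 3 gave 4 genes, *Atf6*, *Eif2ak3*, *Dnajb9* and *Herpud1*, beside 11.3% of all genes. With upper-quartile scaling the median over all genes moved from 0.02 to -0.09, the split of called genes from 1931 higher and 1925 lower to 1434 and 2666, and 7 of the 35 were called, 6 higher and 1 lower. Of the markers of other cells in liver, 2 of 6 neutrophil markers and 1 of 5 plasma and B cell markers tested were higher in null, and 1 of 3 lung markers was lower. Neutrophil markers summed to 2001 to 4217 CPM in WT liver and 2868 to 4560 CPM in null liver, with overlap. Plasma and B cell markers, from cells that carry a large ER, summed to 56.9 to 68.7 and 42.9 to 69.8 CPM. Hepatocyte markers, bile duct markers, red cell markers, pancreas markers and muscle markers had no call. Bile duct markers summed to 107 to 149 CPM in WT liver and 101 to 203 CPM in null liver, red cell markers to 2190 to 2793 and 2053 to 3683 CPM, and pancreas markers to 10.3 to 22.3 and 17.7 to 26.8 CPM. Their part in the liver differences was not tested.

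**Figure D3:**
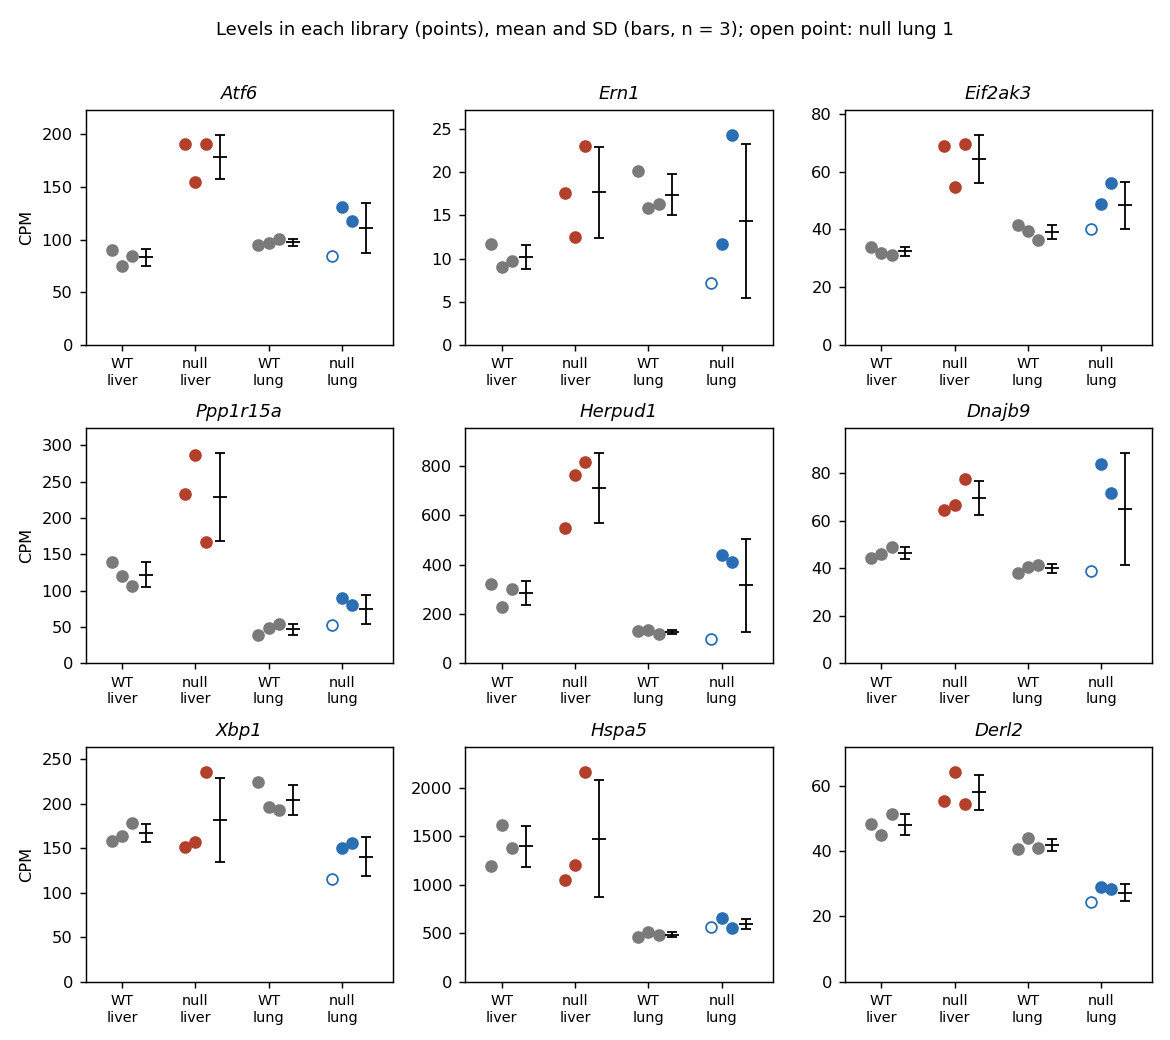
CPM of 9 genes in each library (points) with the mean and SD of each group (bars, n = 3), by group on the x axis, with null lung 1 as an open point. The *Atf6*, *Eif2ak3*, *Ppp1r15a*, *Herpud1* and *Dnajb9* points of null liver lie above all WT liver points, while *Hspa5* and *Xbp1* overlap, and *Herpud1* in null lung 1 (98.7 CPM) lies apart from null lungs 2 and 3 (438 and 413 CPM).

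In null lung no gene of the 35 was called with all libraries, and 15 were called without null lung 1. With all 6 libraries 0.327% of 15591 genes tested were called, 0.0898% higher and 0.237% lower. Of the 35, 9 had an unadjusted p under 0.05, and DESeq2 called 3, with *Hsp90b1* and *Ube2j1* higher and *Derl2* lower, beside 15.1% of all genes, 7.32% higher and 7.8% lower. Without null lung 1, 10 rose and 5 fell, beside 37.0% of all genes called, 18.0% higher and 19.0% lower. Those that rose were led by *Herpud1* (3.32-fold), *Dnajb9* (1.94-fold), *Ppp1r15a* (1.80-fold) and *Ube2j1* (1.49-fold), and those that fell were *Derl2* (1.47-fold), *Pdia4* (1.46-fold), *Hyou1* (1.38-fold), *Sec61b* (1.35-fold) and *Xbp1* (1.34-fold). The median of the 35 was 0.11 with all libraries and 0.05 without null lung 1, beside 0.06 and -0.01 over all genes. The groups did not overlap for 10 genes with all libraries, 4 higher and 6 lower, beside 36.0% of all genes tested, 16.4% higher and 19.6% lower.

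*Herpud1* stood at 129, 134 and 119.9 CPM in WT lung and 98.7, 438 and 413 CPM in null lung. Null lung 1 was below every WT lung and null lungs 2 and 3 were far above them. The log2 fold change was 1.31 (SE 0.53, adjusted p = 0.195) with null lung 1 and 1.73 (SE 0.10, adjusted p = 0.000319) without it. *Dnajb9* stood at 37.9, 40.6 and 41.4 CPM in WT lung and 38.7, 84.2 and 72.0 CPM in null lung, with a log2 fold change of 0.70 (SE 0.28, adjusted p = 0.193) and, without null lung 1, of 0.96 (SE 0.11, adjusted p = 0.00114). *Ppp1r15a* stood at 38.9, 47.9 and 53.7 CPM in WT lung and 52.1, 90.3 and 79.6 CPM in null lung, with log2 fold changes of 0.66 (SE 0.24) and 0.85 (SE 0.15). For both, null lung 1 lay among the WT libraries and null lungs 2 and 3 above them.

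The lung sensors moved less than those of liver by value. *Atf6* stood at 94.8, 96.5 and 101 CPM in WT lung and 84.3, 131 and 118 CPM in null lung, with log2 fold changes of 0.19 (SE 0.18) with and 0.34 (SE 0.09, adjusted p = 0.0245) without null lung 1. *Eif2ak3* stood at 41.5, 39.4 and 36.5 CPM in WT lung and 40.1, 48.8 and 56.2 CPM in null lung, with log2 fold changes of 0.31 (SE 0.16) and 0.42 (SE 0.11, adjusted p = 0.0247). Null lung 1 was the lowest null library for both. *Ern1* stood at 20.1, 15.9 and 16.3 CPM in WT lung and 7.13, 11.7 and 24.4 CPM in null lung, a log2 fold change of -0.27 (SE 0.44), and its direction turned without null lung 1 (0.05). *Xbp1* stood at 224, 196 and 193 CPM in WT lung and 116, 150.5 and 156 CPM in null lung, a log2 fold change of -0.54 (SE 0.17, adjusted p = 0.135) with and -0.42 (SE 0.11, adjusted p = 0.0193) without null lung 1. All null lungs were below all WT lungs for *Xbp1*, unlike in liver.

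Of the chaperones, *Hspa5* stood at 459.9, 513 and 487 CPM in WT lung and 568, 659 and 559 CPM in null lung, higher in every null library, with a log2 fold change of 0.29 (SE 0.17, adjusted p = 0.322) and 0.32 (SE 0.11, adjusted p = 0.054) without null lung 1. *Hsp90b1* was called without null lung 1 (0.41), as were the PERK inhibitor *Dnajc3* (0.31) and, in the lower direction, *Hyou1* (-0.47). The disulfide isomerase *Pdia6* stood at 170.2, 194 and 179.8 CPM in WT lung and 237, 215 and 195 CPM in null lung, without overlap, at 0.25 (SE 0.15) with and 0.17 (SE 0.11) without null lung 1. *Pdia4* fell by 0.55 on the log2 scale without null lung 1, at 51.9, 73.7 and 61.0 CPM in WT lung and 60.6, 47.6 and 38.0 CPM in null lung. No lectin chaperone was called in either fit. *Sec61b* fell by 0.43 without null lung 1.

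In lung ER degradation, *Ube2j1* stood at 66.6, 66.7 and 68.5 CPM in WT and 86.5, 107 and 94.4 CPM in null, with log2 fold changes of 0.51 (SE 0.12, adjusted p = 0.0911) with and 0.57 (SE 0.09, adjusted p = 0.00371) without null lung 1. Every null lung was above every WT lung. *Derl1* (0.35) and *Os9* (0.30) rose without null lung 1. *Sel1l*, which fell in liver, stood at 178, 191 and 180.4 CPM in WT lung and 162, 200.03 and 177 CPM in null lung, a log2 fold change of -0.03 (SE 0.14) that turned to 0.03 without null lung 1. No marker of any other cell type was called in lung with all libraries, where only 0.327% of all genes were called. Markers were not tested in the fit without null lung 1. Outside null lung 1, neutrophil markers summed to 174 to 276 CPM in WT lung and 456 and 469 CPM in null lung, and red cell markers to 98.4 to 293 and 281 and 192 CPM. Bile duct markers, which airway epithelium also expresses, summed to 712 to 913 and 597 and 691 CPM, pancreas markers to 5.43 to 7.08 and 26.6 and 15.8 CPM, and plasma and B cell markers to 2.76 to 3.68 and 2.89 and 3.12 CPM. Their part in the lung differences was not tested.

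*Derl2* encodes a derlin of the ERAD channel. In the main fit of all libraries, unpaired between tissues, it alone of the 35 was called for a tissue difference in genotype effect. It stood at 48.3, 44.8 and 51.2 CPM in WT liver and 55.2, 64.3 and 54.5 CPM in null liver, higher in every null library. It stood at 40.7, 44.1 and 41.0 CPM in WT lung and 24.4, 29.1 and 28.3 CPM in null lung, lower in every null library. The log2 fold change was 0.27 (SE 0.11, adjusted p = 0.105) in liver and -0.62 (SE 0.13, adjusted p = 0.073) in lung, and the effect in lung minus that in liver was -0.89 (SE 0.16, adjusted p = 0.0484). Of 16155 genes tested for this difference 0.371% were called, 0.13% higher and 0.241% lower. DESeq2 called 3 of the 35, *Derl2*, *Atf6* and *Eif2ak3*, beside 3.94% of all genes. With genotype and number as a replicate block, by which liver and lung libraries were paired, no gene of the 35 and 0.0% of all genes were called (*Derl2* adjusted p = 0.135), although 2224 genes had an unadjusted p under 0.05. Without null lung 1, *Derl2* (-0.80, adjusted p = 0.0186) and *Atf6* (-0.73, SE 0.17, adjusted p = 0.0347) were called, beside 5.0% of all genes. With the block and without null lung 1, *Derl2* (-0.85, adjusted p = 0.0279) and *Ern1* (-0.78, adjusted p = 0.0387) were called and *Atf6* was not (adjusted p = 0.0709), beside 5.77% of all genes. Exons of *Derl2* overlap those of *Mis12* on the opposite strand.

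For the other genes the difference between tissues was not called with all libraries, and a p that misses the threshold does not show that the effects were alike. The 5 sensors and regulators all had a negative difference of lung minus liver, from -1.08 (SE 0.54) for *Ern1* through -0.92 (SE 0.23, adjusted p = 0.121) for *Atf6* and -0.69 (SE 0.20, adjusted p = 0.172) for *Eif2ak3* to -0.25 (SE 0.34) for *Ppp1r15a*. *Herpud1* had a difference of -0.01 (SE 0.61), and of 0.43 (SE 0.27, adjusted p = 0.385) without null lung 1. *Ube2j1* (0.01, SE 0.16) and *Dnajb9* (0.12, SE 0.32) lay near 0.

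By promoter motif, 11 genes had an ERSE or ERSE-II and 18 of those with a window had neither. Between WT liver and WT lung, 9 of the 11 were higher in liver, and of the 18, 10 were higher and 2 lower, where 77.0% of all genes were called. In null against WT liver, 2 of the 11 were called, *Herpud1* and *Pdia6*, and 6 of the 18, 5 higher and 1 lower, where 26.9% of all genes were called. Without null liver 1, 1 of the 11 and 4 of the 18 were called, beside 23.8%. The motif groups were not tested against each other. The median log2 fold change in null liver was 0.20 for the 11 and 0.22 for the 18. *Hspa5*, *Calr*, *Hsp90b1* and *Pdia6*, whose ERSE are printed above, had values of 0.08, 0.16, 0.26 and 0.46. *Derl3*, also with an ERSE, had 1.40 on few counts and was not called. *Herpud1*, with an ERSE-II and a CARE, had the largest change of the called genes (1.32).

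Other genes of the same pathways were read from 6 lists, and most genes of the PERK and ATF4 list rose in null liver. Of its 11 genes tested, 8 were called and all 8 rose, beside 26.9% of all genes called and 13.5% called higher. Without null liver 1 the count was also 8 of 11, all higher, beside 23.8% of all genes called and 11.9% called higher. Whether PERK itself was active was not tested. *Atf3*, a stress-induced transcription factor, rose from 3.25 ± 0.295 to 25.0 ± 18.5 CPM (SD, n = 3, log2 fold change 2.94, SE 0.56, adjusted p = 0.00985). The null livers stood apart from one another, at 22.0, 8.15 and 44.8 CPM, all above WT. *Trib3*, a pseudokinase and ATF4 target, rose from 6.11 ± 1.03 to 25.7 ± 3.10 CPM (SD, n = 3, log2 fold change 2.07, SE 0.18, adjusted p = 0.00201). Other ATF6 and IRE1 branch factors had 3 of 11 called, 2 higher and 1 lower, led by the ER-bound transcription factors *Creb3l2* (1.10) and *Creb3l1* (0.80). Other ER degradation genes had 4 of 18 called, 3 higher and 1 lower, led by the ubiquitin-conjugating enzyme *Ube2g2* (0.65) and the deglycosylating enzyme *Ngly1* (-0.64). Fewer genes were called in folding and translocation (2 of 27) and in disulfide and redox enzymes (3 of 16), and 5 of 17 were called in ER to Golgi export, 2 higher and 3 lower. Named genes of these lists were the J proteins *Dnajb12* (0.45) and *Dnajc10* (-0.44), *Tmx4* (-0.66) and the oxidase *Ero1lb* (0.57), and *Lman2l* (0.71) and the coat subunit *Sec24c* (-0.70). Without null liver 1 the counts were 1 of 11, 4 of 18, 4 of 27, 5 of 16 and 4 of 17 in the order given here, and *Creb3l1* was not called (0.67, adjusted p = 0.0694).

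**Figure D4:**
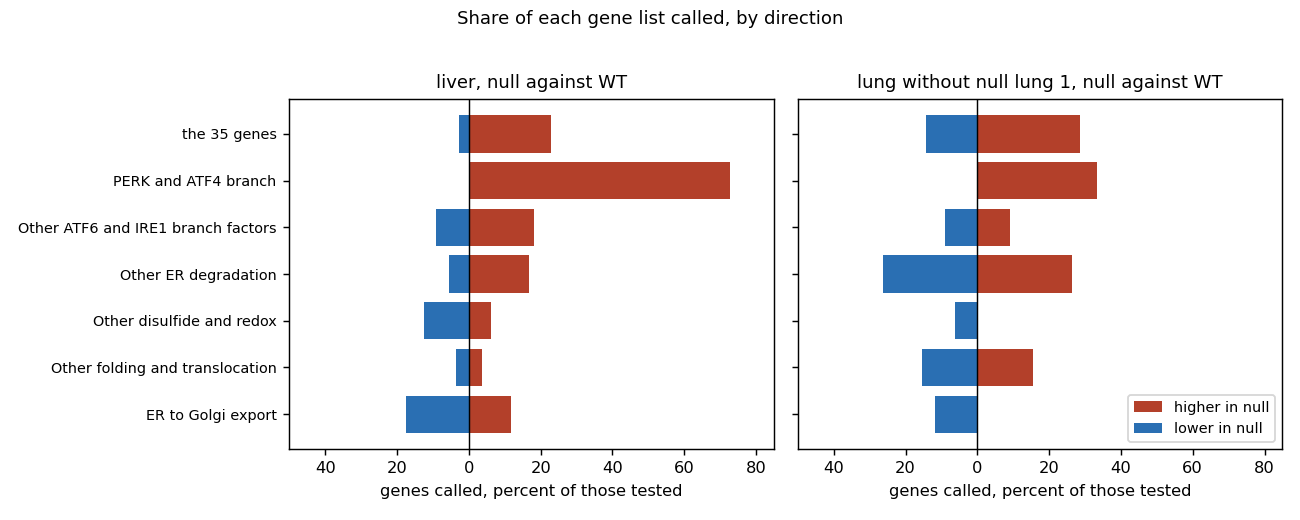
Percent of tested genes called in null against WT, higher to the right and lower to the left, for the 35 genes and 6 further lists (y axis), in liver and in lung without null lung 1. The PERK and ATF4 branch has 8 of 11 genes higher in null liver and 4 of 12 higher in null lung without null lung 1, and none lower in either.

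In lung no gene of the 6 lists was called with all libraries, and for the difference between tissues none was called. Without null lung 1 the PERK and ATF4 branch had 4 of 12 genes higher and none lower, where 37.0% of all genes were called, 18.0% higher and 19.0% lower. In it *Ddit4*, an inhibitor of mTORC1, was at 1.48 (SE 0.27, adjusted p = 0.00545) and *Trib3* at 0.70 (SE 0.18, adjusted p = 0.0186). Other ER degradation had 10 of 19 called, 5 higher and 5 lower, with the ubiquitin enzymes *Ube2j2* at 0.74 and *Rnf139* at 0.66. Folding and translocation had 8 of 26 called, 4 in each direction, with *Fkbp14* at -0.82 and *Dnajb12* at 0.71. The other lists had 2 of 11, 1 of 16 and 2 of 17 genes called, in the ATF6 and IRE1, redox and export lists, against the same 37.0%. *Atf6b*, the paralog of *Atf6*, fell by 0.71 and *Rtcb*, the ligase that joins spliced *Xbp1*, rose by 0.35. *Tmx2* fell by 0.72, *Sec13* by 0.34 and *Lman2* by 0.30.

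Between WT liver and WT lung, the lists had 8 of 12, 7 of 11, 11 of 19, 14 of 16, 19 of 26 and 13 of 17 genes called, in the order of PERK and ATF4, ATF6 and IRE1, ER degradation, redox, folding and translocation, and export. Over all genes 77.0% were called, 37.2% higher and 39.8% lower. Redox enzymes were mostly higher in liver (12 higher, 2 lower), with *Pdia2* at 5.62 and *Qsox1* at 3.15. The PERK and ATF4 branch had 3 genes higher and 5 lower in liver, with asparagine synthetase *Asns* at 3.22 and *Nupr1* at -4.43. Of the ATF6 and IRE1 factors, 2 were higher and 5 lower, with the hepatic factor *Creb3l3* at 8.87 and *Creb3l1* at -3.01. Export had 10 genes higher and 3 lower, with *Mia2*, which loads large cargo, at 2.62 and the coat subunit *Sec24a* at 1.83. *Sil1*, the exchange factor of BiP, was at 1.54 and *Fkbp14* at -1.71, and *Aup1* and *Edem1* of ER degradation were at 0.94 and 0.83.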

How the data were processed

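RNA of 6 livers and 6 lungs from WT and null newborn mice (3 of each genotype per tissue) was sequenced by the authors from stranded poly-A libraries. They deposited raw counts of reads per gene symbol, not normalized, with 1 table per library. The submitters' processing notes name FastQC, STAR 2.5.2a, DESeq2 and mm10, while the counting program, annotation and strand setting are not given in the sources used here. Reads spanning paralogs or overlapping genes could be split or lost, and exons of 3 of the 35 genes overlap another gene on the same strand and those of 11 on the opposite strand (GENCODE M21). Of the gene names, 27 were turned into dates and were tested unnamed.

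Low counts were removed with filterByExpr of edgeR 4.0.16 (R 4.3.3) and libraries were scaled by TMM. The test was edgeR's quasi-likelihood test, its p-values adjusted by Benjamini-Hochberg over all genes tested, with calls at adjusted p under 0.05 and at least 1.2-fold. All 35 genes passed the filter in each comparison. Comparisons were null against WT in liver and in lung, WT liver with WT lung, and the genotype effects between tissues in 1 fit of all 12 libraries. CPM were scaled by TMM over 12 libraries, and RPKM used exon lengths of GENCODE M21, which 95.6% of listed genes had. With 3 against 3 libraries an exact permutation test cannot give p below 0.1, so single genes were tested in the fit. No 2 libraries of a group agreed within counting noise (chi-square per gene of at least 14.7). Replicates are separate pups, 3 per genotype.

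The methods state that both tissues came from the same 3 mice per genotype. Deviations of liver and lung libraries with the same number correlated at 0.143 to 0.200 in WT and 0.360 to 0.447 in null, so the numbers were taken to pair tissues.

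The genes and lists were chosen with earlier results of these data known. Values in every library are given for genes called for a genotype effect or its tissue difference, for the 3 sensors, *Xbp1* and *Hspa5*, and for the 2 genes of each role with the largest log2 difference between WT liver and WT lung. From each further list, at most the 2 called genes with the largest change per comparison are named. Marker lists were of hepatocytes, lung epithelium, red cells (5 of 7 markers found), plasma and B cells, pancreas, bile duct, muscle and neutrophils. Alternatives were DESeq2 1.42.0, DESeq2 size factors, upper-quartile factors, and TMM without haemoglobin and the 20 most abundant genes. Other filters were at least 10 counts in every library, at least 1 count summed over all libraries, and no minimum fold change. Further alternatives were all 12 libraries in 1 fit, a replicate block, null libraries in place of WT, and each library left out. Null tissues without null lung 1, the block for the tissue difference without null lung 1, and the further lists in liver without null liver 1 were added after seeing the data. A gene with 3 reads stands at 0.0699 to 0.112 CPM, which covers counting error only.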

Additional observations from a re-analysis of the deposited data

Results flagged for a closer look

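In the main fit, which did not pair liver with lung, the effect of the genotype on *Derl2* was called as different between tissues. Subtracting the liver effect from the lung effect gave -0.89 on the log2 scale (SE 0.16, edgeR's quasi-likelihood test, adjusted p = 0.0484, n = 3 libraries per group), and every null liver was above every WT liver while every null lung was below every WT lung. The call was lost in 11 of the 12 fits that left out 1 library, with values from -0.93 to -0.80, and it was kept without null lung 1. It was also lost under the replicate block that paired liver with lung, where 0.0% of all genes were called. Exons of *Derl2* overlap those of *Mis12* on the opposite strand, whose part in the difference was not tested.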

How the results depend on the processing

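Of the 35 genes, 9 were called in null against WT liver, beside 26.9% of all genes tested. Fitting all 12 libraries together gave 4, losing *Dnajb9*, *Ern1*, *Herpud1*, *Pdia6* and *Sel1l*, beside 1921 of 16155 genes. Leaving out 1 library gave 4 to 8. The 4 came without WT liver 3, beside 11.3% of all genes, and the 8 without null liver 3, beside 3170 of 14574. The replicate block gave 8, losing *Pdia6*, beside 3304 of 14343 genes. But same-numbered WT and null libraries correlated at only -0.0323 to 0.128 in liver and -0.0768 to 0.108 in lung, so they share only a number. In lung, where 0 were called, DESeq2 gave 3, beside 15.1% of all genes. All 12 libraries in 1 fit gave 2, beside 2284 of 16155, and the block 0, beside 0 of 15591. Leaving out 1 library gave 0 to 15, the highest without null lung 1, beside 37.0% of all genes. Between WT liver and WT lung the 25 calls, beside 77.0% of all genes, ranged from 21 to 28. The 21 came with all 12 libraries in 1 fit, beside 10122 of 16155 genes. The 28 came without WT liver 1, beside 11908 of 15911. The replicate block gave 24, beside 77.7%, and null liver against null lung gave 18, beside 45.8%. For the tissue difference in the genotype effect 1 was called, beside 0.371% of all genes. DESeq2 gave 3, beside 3.94%, and DESeq2 size factors 0, beside 45 of 16155 genes. A minimum of 1 count summed over all libraries gave 0, beside 33 of 20414. The replicate block gave 0, beside 0.0%, and the block without null lung 1 gave 2, beside 5.77%. Leaving out 1 library gave 0 to 2, the highest without null lung 1, beside 5.0%.

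Directions turned for *Ern1* in lung without null lung 1 (0.049, with -0.89 to 0.049 over the libraries left out), for *Sel1l* in lung without null lung 1 (0.033, with -0.10 to 0.033) or WT lung 2 (0.0014), and, with null libraries in place of WT for liver minus lung, for *Ern1* (0.29) and *Xbp1* (0.36), with *Ern1* at -0.040, *Xbp1* at 0.23 and *Sel1l* at -0.053 when null lung 1 was also left out. In each case the cause was not tested beyond the libraries left out. Paired by number, *Xbp1* and *Vcp* lost and *Uggt2* gained a call between WT tissues, and no other call there changed. Depth limits *Derl3*, with 7 to 74 counts per library. With 3 libraries a group, 1 library decided many calls. In edgeR's fit of lung alone, 15 were called without null lung 1 and 0 with it. With null lung 1 kept, DESeq2 called *Derl2*, *Hsp90b1* and *Ube2j1*, all among the 15. The fit of all 12 libraries also called *Derl2* and *Ube2j1* in lung.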
